A study of Mus musculus with 12 samples.

Results

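The genes described here encode the subunits of the proteasome, the protease that removes ubiquitin-tagged proteins from the cell. They were taken by symbol: every protein-coding gene on a reference chromosome named Psma, Psmb, Psmc or Psmd followed by a number. The rule found 39 of the 52962 genes in the deposited table, namely 8 Psma, 11 Psmb, 6 Psmc and 14 Psmd genes. All lay at the same position in GENCODE mouse release M21, on build GRCm38.

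RNA was measured in 12 libraries of mouse rods, the photoreceptors of dim-light vision. Retinas had received plasmids by electroporation, an electric pulse that drives DNA into cells, and GFP-positive rods were picked by hand at postnatal day 8, with 50 to 100 cells behind each library. The series addresses protein kinase CK2, a serine/threonine kinase whose alpha catalytic subunit is encoded by Csnk2a1, and its bearing on genes driven by the rod transcription factor NRL. Each of the 4 groups held 3 libraries: a short hairpin RNA against mouse Csnk2a1 (shRNA mCsnk2a1), its control hairpin (shRNA Control), the expression vector pcDNA4c carrying mouse Csnk2a1 (pcDNA4c mCsnk2a1), and that vector as control (pcDNA4c Control). All groups share the electroporation and the GFP used for picking, and each library pools cells. The promoters of the constructs, the mouse strain and the number of animals are not given in the sources used here, so a p-value speaks only of how these samples scatter. In such pooled samples fewer cells of a type and less RNA per cell cannot be told apart.

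Libraries held 1608926 to 3567121 estimated counts, and both Csnk2a1 groups were deeper than their controls. Yet 16164 to 18782 genes had a count in pcDNA4c mCsnk2a1, against 22688 to 25326 in pcDNA4c Control. In shRNA mCsnk2a1 it was 17566 to 20682 genes, against 20352 to 22146 in shRNA Control, with overlap. The part of this in the shares and medians over all genes given below was not tested. Csnk2a1 itself stood at 12.0, 22.2 and 36.0 CPM (counts scaled to a common library size) in replicates 1, 2 and 3 of shRNA mCsnk2a1 and at 66.9, 57.2 and 8.51 CPM in shRNA Control. It stood at 49.9, 145 and 122 CPM in pcDNA4c mCsnk2a1 and at 86.6, 25.0 and 28.3 CPM in pcDNA4c Control. Both pairs of groups overlapped, and neither difference passed the test (edgeR, log2 difference -0.92 with adjusted p = 0.905 for the hairpin and 1.18 with adjusted p = 0.801 for the vector), so "knockdown" and "overexpression" below name the construct. All 14 rod markers had counts in all libraries, with summed levels of 13560 to 15380 CPM with the Csnk2a1 hairpin and 6258 to 8648 CPM in its control, 6030 to 12560 CPM with the Csnk2a1 vector and 6218 to 7994 CPM in its control. Their part in the results below was not tested.

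The proteasome is a barrel with a cap at one or both ends. The barrel, or core particle, stacks rings of alpha subunits (Psma genes), which form the gate, around rings of beta subunits (Psmb genes), of which Psmb5, Psmb6 and Psmb7 carry the active sites. In the cap, or regulatory particle, a ring of ATPases (Psmc genes) unfolds substrates and feeds them into the core, and the non-ATPase subunits (Psmd genes) bind ubiquitin chains, cut them off and hold the particle together. Interferon and immune cells replace the catalytic subunits by Psmb8, Psmb9 and Psmb10, which makes the immunoproteasome, while Psma8 serves the testis and Psmb11 the thymus. In rods, proteasome capacity is studied because many inherited retinal degenerations burden these cells with misfolded protein. The protein of Psma3 is a known substrate of CK2.

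Proteasome subunits were expressed in these libraries at moderate levels. Of the 39 genes, 32 had a count in all 12 libraries and 38 passed the filter on low counts. Psma8, the testis subunit, did not pass, with 50 counts spread over 5 libraries. Across the 38 the median of the mean level was 40.6 CPM, beside 16.3 CPM over all 20267 genes tested. Between 34 and 38 subunits were detected in each library.

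Levels between genes were compared in TPM, a share of the library that is divided by transcript length. The ATPases of the cap had the highest median of the classes, 31.4 TPM over 6 genes, with means from 13.8 (Psmc5) to 47.5 TPM (Psmc1). That order held for total TPM only: on coding transcripts the median was 14.5 TPM for the ATPases and 15.7 TPM for the Psma genes. The structural members of the core rings followed with a median of 25.3 TPM over 11 genes (15.2 TPM on coding transcripts). Psmd1 and Psmd2, the scaffolds at the base of the cap, had a mean of 20.6 and 22.1 TPM. The 7 lid subunits had a median of 16.4 TPM, from 8.39 (Psmd3) to 29.7 TPM (Psmd8), and the deubiquitinase Psmd14 had a mean of 17.1 TPM. The 3 assembly chaperones Psmd5, Psmd9 and Psmd10, which help to build the base of the cap and leave before it is finished, had a median of 6.00 TPM.

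The highest subunit was Psmd4, a receptor for ubiquitin chains in the cap (chr3:95032694-95042614), with 51.0 ± 14.8 TPM (SD over 12 libraries). Its TPM in replicates 1, 2 and 3 was 51.7, 63.8 and 57.9 in shRNA mCsnk2a1, 65.3, 57.8 and 59.2 in shRNA Control, 61.6, 61.8 and 36.2 in pcDNA4c mCsnk2a1, and 44.5, 33.7 and 18.1 in pcDNA4c Control. The shRNA libraries lay in a narrow band, and replicate 3 of pcDNA4c Control was the lowest of all. Psmc1 came next with 47.5 ± 20.9 TPM and Psma7 after it with 41.2 ± 34.4 TPM. Neighbours in this order did not differ beyond their spread, since Psma7 alone ranged from 4.36 to 116 TPM. At the low end of each class among genes that passed the filter stood Psma5 with 9.05, Psmb11 with 1.60, Psmc5 with 13.8 and Psmd10 with 2.06 TPM.

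**Figure D1:**
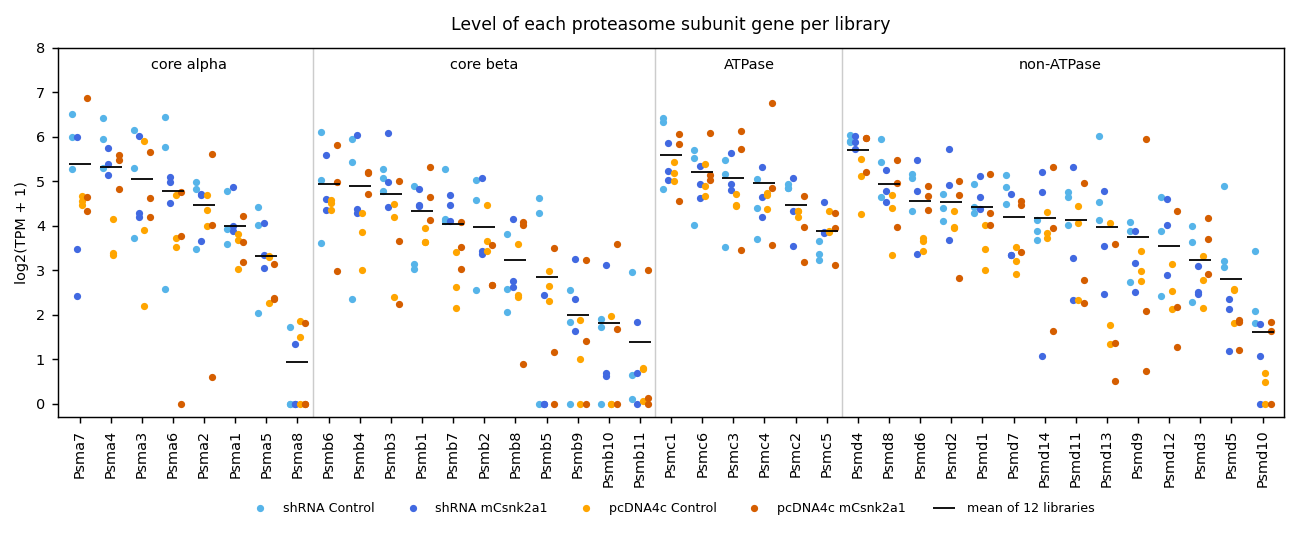
Level of each subunit in each library as log2(TPM + 1), with libraries as points coloured by group, and a dash at the log2 of 1 plus the mean TPM over the 12 libraries. Psmd4 (51.0 TPM) leads, the ATPases sit high in total TPM, and Psmb9, Psmb10, Psmb11, Psmd10 and Psma8 lie at the bottom.

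Among the 3 catalytic subunits of the constitutive core, Psmb6 was the highest by RNA with a mean of 29.8 TPM, then Psmb7 with 15.4 TPM and Psmb5 with 6.18 TPM. Psmb5, the chymotrypsin-like subunit (chr14:54614119-54618022), had CPM values of 0, 5.8 and 0 in shRNA mCsnk2a1, 0, 23.2 and 19.3 in shRNA Control, 11.8, 0 and 1.3 in pcDNA4c mCsnk2a1, and 10.8, 8.0 and 5.5 in pcDNA4c Control. It had no count in 4 libraries of 3 groups, while Psmb6 and Psmb7 were counted in all 12. A count of 0 allows up to 3 counts, which is 0.923 to 1.79 CPM depending on the library, a limit for counting error alone, as PCR copies of a molecule were counted as reads. The protein complex holds these 3 subunits in equal number, and their RNA did not stand at equal levels here.

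Of the immunoproteasome subunits, Psmb8 had a mean of 8.40 TPM, Psmb9 of 3.00 and Psmb10 of 2.49 TPM. Summed TPM of the constitutive trio in replicates 1, 2 and 3 was 72.0, 43.9 and 40.4 in shRNA mCsnk2a1, 105.6, 71.5 and 46.4 in shRNA Control, 51.6, 71.2 and 15.3 in pcDNA4c mCsnk2a1, and 29.7, 36.8 and 32.1 in pcDNA4c Control. Summed TPM of the immunoproteasome trio was 21.4, 14.3 and 15.5 in shRNA mCsnk2a1, 8.08, 18.4 and 7.21 in shRNA Control, 23.7, 4.67 and 27.0 in pcDNA4c mCsnk2a1, and 16.6, 4.44 and 5.25 in pcDNA4c Control. The immunoproteasome sums overlapped between the groups, while the constitutive sums of both shRNA groups lay above those of pcDNA4c Control. The immunoproteasome share of the 6 genes ran from 6.16% to 63.8%. It was 22.9% to 27.7% in shRNA mCsnk2a1 and 7.11% to 20.4% in shRNA Control, without overlap, but on coding transcripts alone it was 0% to 19.9% and 0% to 3.46%, with overlap. Replicate 3 of pcDNA4c mCsnk2a1 was the one library where the immunoproteasome trio exceeded the constitutive one, and on coding transcripts it did not (11.0 against 13.0 TPM). None of the 6 genes had an unadjusted p under 0.05 in any comparison.

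Immune cells are rich in immunoproteasome, so markers of microglia and macrophages were read in the same libraries. In pcDNA4c Control all 15 markers had a count, and their sum was 1052 to 1275 CPM. The sum was 63.7 to 96.4 CPM in shRNA Control, where 10 of 15 had a count and C1qa, C1qc, Tyrobp, Fcer1g and Mpeg1 were at 0. It was 13.8 to 46.6 CPM in shRNA mCsnk2a1 with 8 of 15 counted (C1qa, Aif1, Tyrobp, Fcer1g, Cd68, Ctss and Lyz2 at 0), and 65.1 to 98.4 CPM in pcDNA4c mCsnk2a1, also with 8 of 15 (C1qa, C1qb, Tyrobp, Ctss, Lyz2, Mpeg1 and P2ry12 at 0). The immunoproteasome sum of the marker-rich pcDNA4c Control libraries, 4.44 to 16.6 TPM, lay within the range of 4.67 to 27.0 TPM seen in the other 9 libraries except for its lowest value. On coding transcripts it was 8.885, 1.247 and 0.993 TPM in pcDNA4c Control and 0 to 14.2 TPM in the other 9 libraries. The part of immune cells in the immunoproteasome level was not tested.

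**Figure D2:**
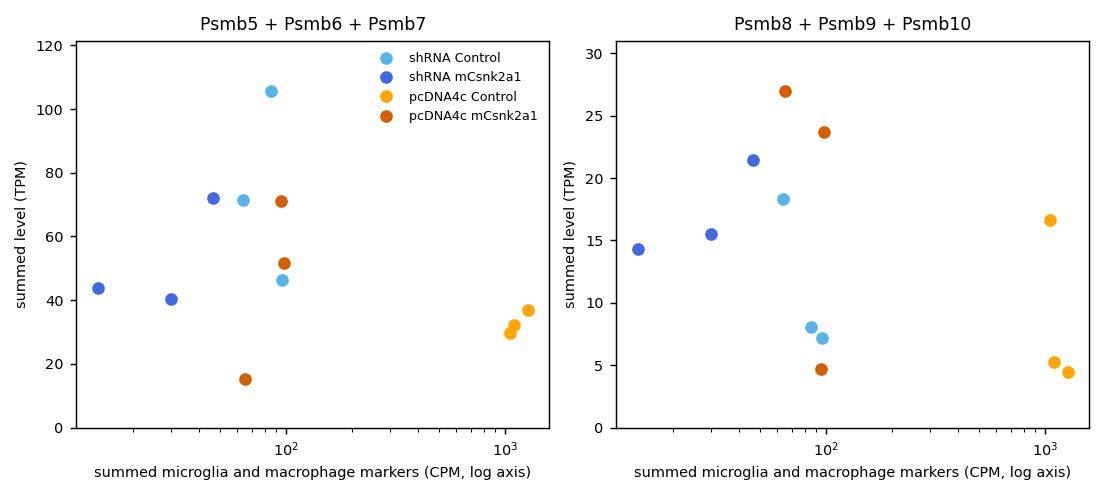
Summed TPM of Psmb5, Psmb6 and Psmb7 and of Psmb8, Psmb9 and Psmb10 in each library (vertical axis), against the summed CPM of 15 microglia and macrophage markers (log axis). The 3 pcDNA4c Control libraries stand apart at 1052 CPM or more, without the highest immunoproteasome sum, which was 27.0 TPM in pcDNA4c mCsnk2a1.

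Of the tissue-restricted subunits, thymic Psmb11 had CPM of 24.0, 5.2 and 0 in shRNA mCsnk2a1, 45.6, 3.6 and 0.6 in shRNA Control, 0.9, 56.4 and 0 in pcDNA4c mCsnk2a1, and 7.4, 0.5 and 7.2 in pcDNA4c Control. Its values were scattered with 1 high library in several groups. It gathered 387 counts in all against 171 for Psmb5, yet only 1.60 against 6.18 TPM, with an annotated transcript of 4247 bases. By counts the thymic subunit thus stood above the chymotrypsin-like one, and by TPM below it. Over the 39 genes the rank correlation of mean TPM with mean CPM was 0.769, given as a description over genes that share libraries.

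Much of the signal of several subunits came from transcripts that the annotation does not call protein-coding. Over the 220 annotated transcripts of the 39 genes, 67.8% of TPM lay on protein-coding transcripts, 15.2% on transcripts with a retained intron, 11.4% on processed transcripts without an open reading frame, and 5.29% on targets of nonsense-mediated decay. In 12 genes at least 90% was coding, among them Psmd4 with 97.7%, Psmb7 with 98.1% and Psma4 with 95.5%. In 10 genes less than 50% was. Psmb8 had 19.4%, with its retained-intron transcript Psmb8-207 at 5.98 TPM and present in 11 of 12 libraries. Psmc1, second by total TPM, had 28.7%: its processed transcript Psmc1-203 of 551 bases carried 29.1 TPM and its coding transcript Psmc1-201 of 1591 bases carried 13.6 TPM.

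The deubiquitinase Psmd14 had 31.0% on coding transcripts and Psma3 had 23.8%. In the ATPase class as a whole 49.2% of TPM was coding, against 75.2% for Psma, 70.9% for Psmb and 73.8% for Psmd. By group the coding share of all subunits was 71.2 ± 4.12% with the Csnk2a1 hairpin and 71.7 ± 7.22% in its control (SD, n = 3 each). It was 62.9 ± 3.44% with the Csnk2a1 vector and 63.2 ± 5.88% in its control. The shRNA groups overlapped each other, and so did the pcDNA4c groups. The kit amplifies total RNA, and fragments were assigned to transcripts by estimation, so the split between overlapping transcripts carries an error that the files do not give.

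**Figure D3:**
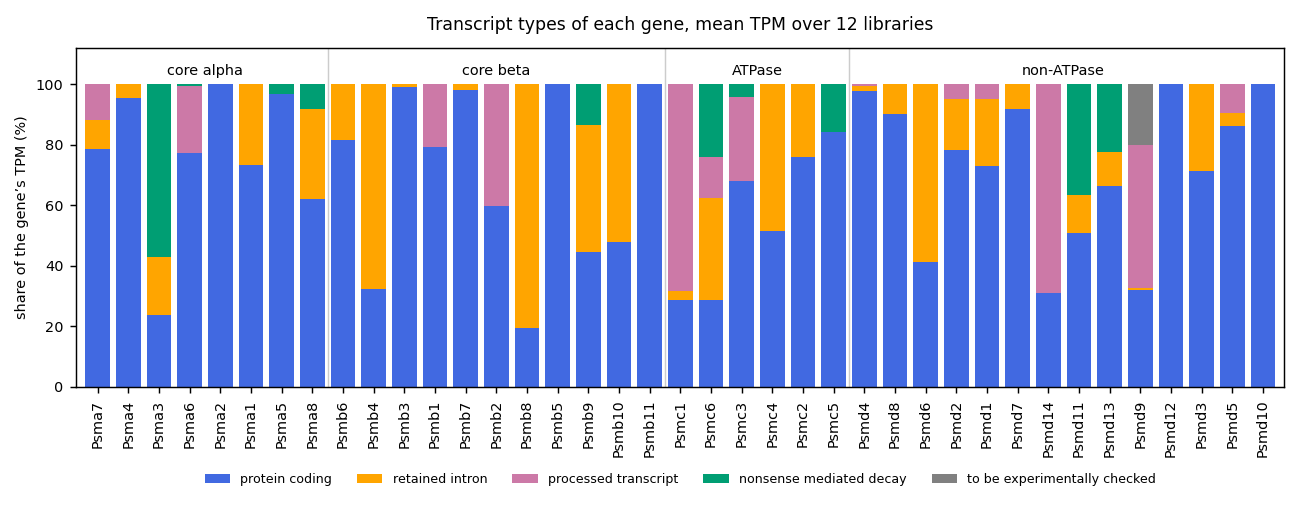
Share of each subunit's TPM by annotated transcript type, over 12 libraries. Psmd4 and Psmb7 are almost wholly coding, while Psmb8 (19.4% coding), Psma3 (23.8%) and Psmc1 (28.7%) carry most of their signal on other types.

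Some single values rested on 1 library. The chaperone Psmd9 had 202 CPM in pcDNA4c mCsnk2a1 replicate 2, where its 406-base short processed transcript held 60.2 TPM, against 10.5 and 2.3 CPM in replicates 1 and 3. In the other 9 libraries it lay between 15.6 and 48.9 CPM. For Psmd10, an alternate sequence patch of the assembly holds a copy with the same estimated counts, 128.3 on each, so its printed level excludes 50% of the counts given to the pair. Pseudogenes took few counts, with 9 for Psmb5-ps and 34 for Psmb7-ps2. A total of 19 subunits overlap another gene and 16 overlap one on the opposite strand, such as Psmb9 with Tap1 and Psmb7 with Nek6; whether counting used the strand is not stated.

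No subunit passed the test with the hairpin against Csnk2a1. At an adjusted p under 0.05, 0 of 38 subunits passed in the knockdown comparison (edgeR quasi-likelihood test, Benjamini-Hochberg over all genes), where 0% of all genes tested passed. The smallest adjusted p of a subunit was 0.598. DESeq2 and limma voom also called 0. At an unadjusted p under 0.05, 0 subunits were higher, with 3.23% of all genes, and 1 was lower, Psmd5, with 5.1% of all genes. The median SE of a subunit's log2 difference was 0.96, so a doubling lies at about 1 SE and could go undetected at this depth.

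Psmd5 (chr2:34849734-34874968, minus strand) encodes an assembly chaperone that holds ATPases of the base. Its CPM in replicates 1, 2 and 3 was 11.6, 33.9 and 28.5 in shRNA mCsnk2a1 and 48.2, 52.4 and 196 in shRNA Control. All 3 knockdown libraries lay below all 3 controls, and replicate 3 of shRNA Control was the highest library. The log2 difference was -2.00 with SE 0.88 (edgeR, adjusted p = 0.598), and -1.04 without that replicate (adjusted p = 0.899). With the expression vector Psmd5 also stood low, at 20.1, 10.3 and 20.1 CPM against 49.2, 50.0 and 23.8 CPM in pcDNA4c Control, again without overlap (log2 difference -1.28, SE 0.87, adjusted p = 0.746). The sign was thus the same with either construct, and the difference between the effects was 0.72 with SE 1.21 (adjusted p = 0.960). In TPM the pcDNA4c groups overlapped for Psmd5, at 2.69, 1.32 and 2.59 with Csnk2a1 against 4.88, 4.97 and 2.49. The shRNA groups stayed apart in TPM. On coding transcripts they overlapped, at 1.27, 3.81 and 3.34 TPM with the hairpin against 7.39, 1.20 and 28.8 TPM.

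In CPM, all knockdown libraries of Psmc5 and Psmd4 lay above shRNA Control, 2 of 38 subunits or 5.26%, beside 5.61% of all genes. Psmd5 was the only one that lay all below, 2.63% beside 6.68%. These shares are near the background. Psmc5, an ATPase, had 37.9, 34.2 and 59.2 CPM against 23.3, 18.5 and 17.6 CPM (log2 difference 1.14, SE 0.87, adjusted p = 0.829). Psmd4 had 115, 130 and 122 CPM against 104, 90.5 and 99.3 CPM (log2 difference 0.32, SE 0.57, adjusted p = 0.997). In TPM the Psmd4 groups overlapped and the direction reversed, with a mean of 57.8 in shRNA mCsnk2a1 and 60.8 in shRNA Control. Of the 38 subunits, 24 (63.2%) had a fitted difference above 0, beside 48.9% of all genes, and 19 did when libraries were scaled by total count alone.

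By class the median fitted log2 difference in knockdown was 0.07 for Psma, 0.37 for Psmb, 0.38 for Psmc and 0.00 for Psmd, and 0.17 over all 38, beside -0.03 over all genes tested. The summed level of the subunits was 2132, 1914 and 1976 CPM in shRNA mCsnk2a1 and 1968, 1683 and 1877 CPM in shRNA Control, which overlap, with a ratio of means of 1.09. In TPM the sums were 818, 817 and 786 against 1099, 943 and 891, with every knockdown library lower and a ratio of 0.825. The direction of the sum therefore depended on the scale, and none is given for knockdown.

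With the Csnk2a1 expression vector no subunit passed either, 0 of 38 beside 0.0987% of all genes, and the smallest adjusted p was 0.568 (edgeR; DESeq2 and limma voom called 0). At an unadjusted p under 0.05, 1 subunit was higher, Psma4, beside 2.15% of all genes, and 0 were lower, beside 6.58%. In CPM, libraries did not overlap for 3 higher subunits (Psma4, Psmb4 and Psmd6, 7.89% beside 3.73% of all genes). The same held for 2 lower ones (Psmb2 and Psmd5, 5.26% beside 11.8%). The fitted difference was above 0 for 24 of 38 (63.2%, beside 45.1%). Median fitted log2 differences were -0.15 for Psma, 0.51 for Psmb, 0.08 for Psmc and 0.35 for Psmd, and 0.29 over all, beside -0.16 over all genes. Taken instead from group means of log2 CPM (prior count 2), the median over the subunits was -0.06, of the opposite sign, beside -0.53 over all genes.

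Psma4, an alpha-ring subunit (chr9:54950790-54958030, plus strand), had CPM of 84.9, 97.4 and 55.7 in pcDNA4c mCsnk2a1 and 24.1, 44.5 and 23.8 in pcDNA4c Control. In the shRNA groups it had 96.5, 74.2 and 118 CPM (shRNA mCsnk2a1) and 103, 64.3 and 151 CPM (shRNA Control). The 3 pcDNA4c Control libraries lay below all 9 others. The same held in TPM, with 9.12, 16.8 and 9.52 in pcDNA4c Control and 27.3 to 84.6 elsewhere. The log2 difference was 1.36 with SE 0.65 (edgeR, adjusted p = 0.568) for the vector with Csnk2a1, -0.14 with SE 0.63 for the hairpin (adjusted p = 1), and 1.50 with SE 0.90 for the difference between the effects (adjusted p = 0.676).

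The other subunits without overlap in CPM in overexpression had smaller or less certain differences. Psmb4, a structural beta subunit, had 34.6, 51.4 and 51.7 CPM against 25.1, 13.0 and 32.1 CPM in pcDNA4c Control (log2 difference 0.97, SE 0.97, adjusted p = 0.912). Psmd6, a lid subunit, had 31.9, 49.5 and 41.3 CPM against 21.6, 26.5 and 23.8 CPM (log2 difference 0.77, SE 0.87, adjusted p = 0.940). Psmb2, another structural beta subunit, had 12.7, 6.58 and 6.38 CPM against 33.0, 15.5 and 16.6 CPM (log2 difference -1.34, SE 1.28, adjusted p = 0.902). In TPM the Psmb2 groups overlapped, at 10.8, 5.32 and 5.31 against 21.3, 9.88 and 11.5. Psmb4 and Psmd6 stayed apart in TPM and overlapped on coding transcripts. Psma3, whose protein CK2 phosphorylates, had 76.1, 27.6 and 37.6 CPM against 28.5, 120 and 7.20 CPM (log2 difference -0.15, SE 0.97, adjusted p = 1). The groups overlapped, also without replicate 2 of the control, the highest library. In knockdown Psma3 had 32.3, 108 and 32.4 CPM against 50.8, 16.1 and 97.6 CPM, also with overlap (log2 difference 0.07, SE 0.97, adjusted p = 1).

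Promoter windows of Psma4 and Psmd5, the subunits that reached an unadjusted p under 0.05, are printed from RefSeq (GRCm38.p6), from 250 bases before to 50 after the RefSeq transcript start. That start lies 69 bases inside the gene span given above for Psma4 and 4006 bases inside that of Psmd5. Psma4 lies on the plus strand at chr9:54950609-54950908 and Psmd5 on the minus strand at chr2:34870913-34871212. No letters are capitalised, since none of the 6 motifs searched below matched in either window.
Psma4: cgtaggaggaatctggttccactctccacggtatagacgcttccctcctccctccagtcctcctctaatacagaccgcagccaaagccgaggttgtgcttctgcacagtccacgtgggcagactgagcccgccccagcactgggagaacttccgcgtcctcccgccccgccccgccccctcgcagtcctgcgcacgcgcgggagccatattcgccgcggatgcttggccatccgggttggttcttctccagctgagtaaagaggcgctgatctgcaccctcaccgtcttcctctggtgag
Psmd5: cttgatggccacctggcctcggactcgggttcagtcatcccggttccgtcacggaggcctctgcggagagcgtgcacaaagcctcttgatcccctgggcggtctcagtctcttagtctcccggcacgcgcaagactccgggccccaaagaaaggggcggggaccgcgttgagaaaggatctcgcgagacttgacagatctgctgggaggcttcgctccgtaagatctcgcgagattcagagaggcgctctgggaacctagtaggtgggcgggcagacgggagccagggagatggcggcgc

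Summed over subunits, pcDNA4c mCsnk2a1 had 1583, 2244 and 1440 CPM and pcDNA4c Control 1431, 1591 and 1389 CPM. The groups overlapped in CPM, with a ratio of means of 1.19, and replicate 2 was the high library. In TPM the sums were 773, 975 and 613 against 495, 555 and 490, without overlap and with a ratio of 1.53. Microglia and macrophage markers summed to 65.1 to 98.4 CPM with the Csnk2a1 vector and to 1052 to 1275 CPM in its control. Bipolar cell markers went the other way, with 1022 to 1299 against 364 to 541 CPM. The part of these cells in the subunit sums was not tested. An exact permutation test of 3 against 3 libraries cannot go below p = 0.1, so no p is given.

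For the difference between the effects of vector and hairpin, 0 of 38 subunits passed, beside 0.0197% of all genes, and the smallest adjusted p was 0.676 (edgeR; DESeq2 and limma voom called 0). At an unadjusted p under 0.05, 0 were higher and 0 lower, beside 3.19% and 5.16% of all genes. The fitted value was above 0 for 19 of 38 (50%, beside 47%). The median was 0.01, with an SE of a single subunit of 1.35 at the median.

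**Figure D4:**
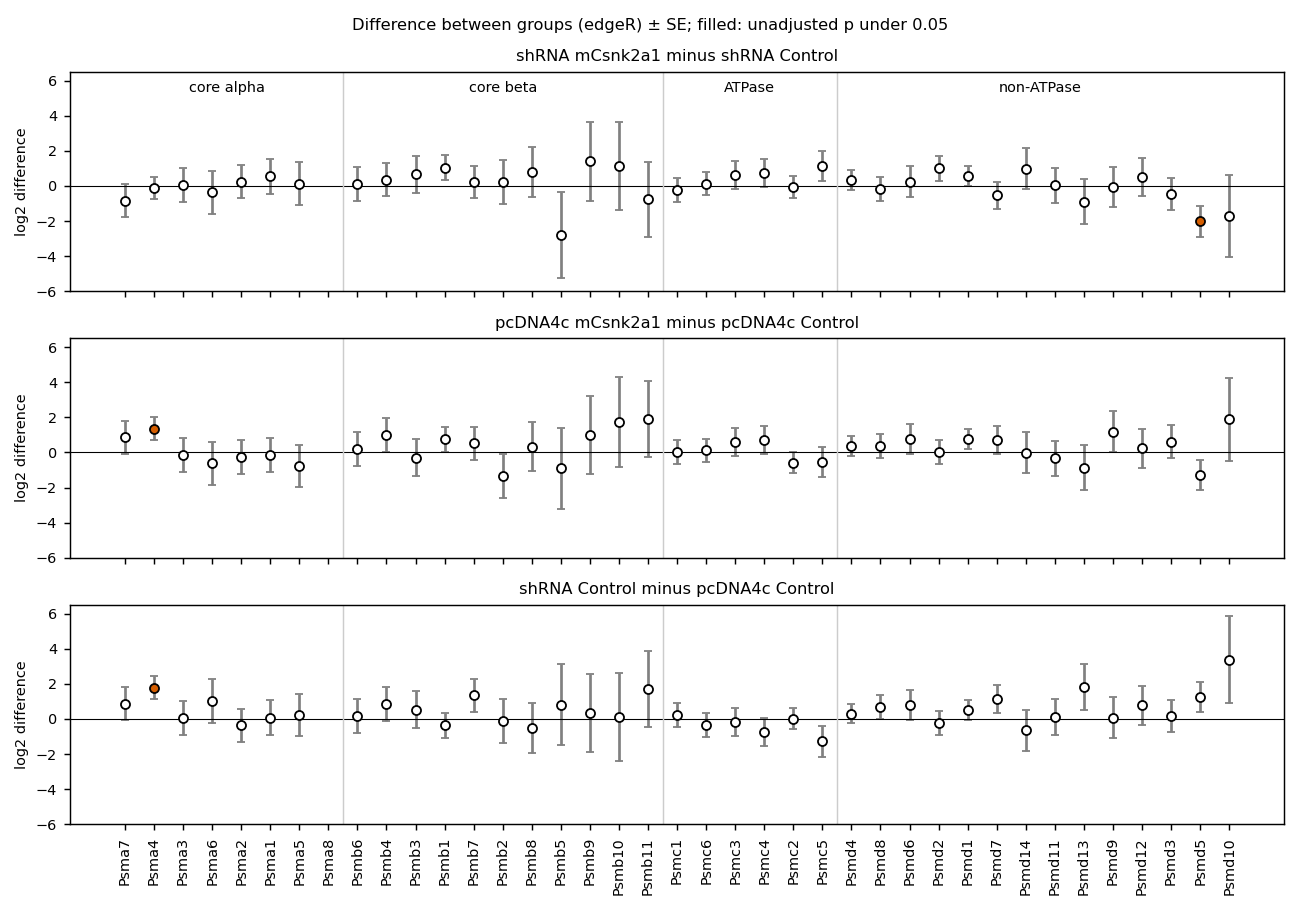
Fitted log2 difference of each of 38 subunits with its SE from edgeR, in a panel for each of 3 comparisons, with filled points where the unadjusted p was under 0.05. The error bars are as wide as most differences, and the filled points are Psmd5 in knockdown (-2.00) and Psma4 in overexpression (1.36) and between the control groups (1.78).

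Between the control groups, shRNA Control minus pcDNA4c Control, the subunits stood higher in sum in shRNA Control. These are also the controls of the comparisons above, so their values are not independent of them. Here too 0 of 38 passed, beside 0.0691% of all genes, with a smallest adjusted p of 1 (edgeR; DESeq2 and limma voom called 0). At an unadjusted p under 0.05, 1 was higher, again Psma4 with a log2 difference of 1.78 and SE 0.65 (adjusted p = 1), beside 1.44% of all genes, and 0 were lower, beside 2.77%. Of the 38, 28 (73.7%) had a fitted difference above 0, beside 50% of all genes. The median was 0.23, beside 0 over all genes, with -0.26 for Psmc, 0.24 for Psma, 0.35 for Psmb and 0.58 for Psmd.

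Between the control groups 6 subunits were higher without overlap in CPM (Psma4, Psma7, Psmb7, Psmd10, Psmd6 and Psmd7, 15.8% beside 5.13% of all genes). Another 2 were lower (Psmc5 and Psmd14, 5.26% beside 8.56%), of which Psmd14 overlapped in TPM. Psmb7, the trypsin-like catalytic subunit, had 69.0, 29.2 and 32.3 CPM in shRNA Control and 9.8, 27.5 and 13.8 CPM in pcDNA4c Control (log2 difference 1.35, SE 0.93, adjusted p = 1). Psmd7, a lid subunit, had 68.4, 81.6 and 54.5 CPM against 39.4, 30.5 and 22.7 CPM (log2 difference 1.14, SE 0.79, adjusted p = 1). Psma7, an alpha-ring subunit, had 106, 73.2 and 46.5 CPM against 38.9, 45.5 and 39.3 CPM, with the lowest shRNA Control library close to the highest pcDNA4c Control one. The ATPase Psmc5 went the other way, with 23.3, 18.5 and 17.6 against 60.0, 43.0 and 41.0 CPM (log2 difference -1.28, SE 0.87, adjusted p = 1). Summed CPM was 1968, 1683 and 1877 against 1431, 1591 and 1389, without overlap and with a ratio of means of 1.25. It was 1.91 in TPM and 2.17 in the TPM of coding transcripts, and the groups did not overlap on any of the 5 scales tried. Microglia and macrophage markers moved the opposite way to the subunits. Their sum was 1052 to 1275 CPM in pcDNA4c Control against 63.7 to 96.4 CPM in shRNA Control. Müller glia markers (8 of 8 counted in both groups) did so in sum, at 1173 to 1457 against 459 to 858 CPM. That sum rested on Apoe, with a mean of 1084 CPM in pcDNA4c Control (edgeR, log2 difference -3.42). All other Müller glia markers went the same way as the subunits, with log2 differences from 0.45 (Sox9) to 1.31 (Dkk3). The sum of bipolar cell markers (9 of 9 counted) moved the same way as the subunits, at 364 to 541 against 582 to 839 CPM. Among them Otx2 and Trpm1 went the other way, with means of 219 and 37.6 CPM in pcDNA4c Control against 190 and 27.1 CPM. The part of these cells in the subunit levels was not tested.

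**Figure D5:**
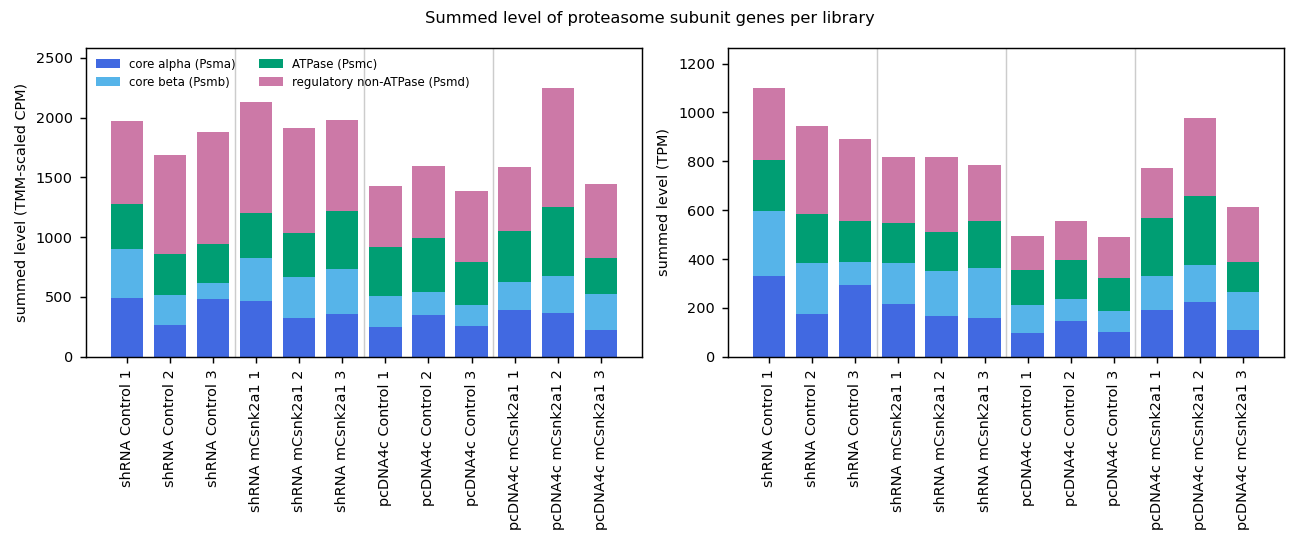
Summed level of the 39 subunits in each library, stacked by class, in CPM on the left and in TPM on the right. pcDNA4c Control is the lowest group in TPM (490 to 555), and in CPM its libraries (1389 to 1591) lie below every shRNA library and overlap pcDNA4c mCsnk2a1 (1440 to 2244).

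Single subunits varied far more than their sum. The coefficient of variation of the summed CPM over 3 libraries was 5.58% with the Csnk2a1 hairpin, 7.90% in its control, 24.4% with the Csnk2a1 vector and 7.25% in its control. The median over single subunits was 53.4%, 51.7%, 59.3% and 37.4% in the same order, beside 90.5%, 85.9%, 98.2% and 65.4% over all genes tested. A sum over many genes varies less than its members also when they scatter independently, so the narrow sums are given as a description. The ATPases of pcDNA4c Control were the tightest class, with a median of 14.7%.

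Other genes of the pathway were read from a list of 34 activators, shuttles, assembly factors, ubiquitin genes and regulators, of which Paaf1 was not matched in the table and 33 were tested. None passed in any of the 4 comparisons (edgeR). At an unadjusted p under 0.05 in overexpression, 2 were higher (6.06%, beside 2.15% of all genes) and 1 lower (3.03%, beside 6.58%). Nfe2l2, the oxidative stress factor NRF2, had 15.4, 9.23 and 33.9 CPM in shRNA mCsnk2a1 and 1 count in all in shRNA Control (edgeR, adjusted p = 0.598). It stood at 13.3, 33.0 and 14.4 CPM in pcDNA4c Control and at 4.81, 0 and 21.1 CPM in pcDNA4c mCsnk2a1.

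In overexpression the other genes were Vcp, Nfe2l1 and Usp14. Vcp, the ATPase that extracts ubiquitinated proteins for the proteasome, had 176, 154 and 115 CPM in pcDNA4c mCsnk2a1 and 16.7, 69.5 and 71.5 CPM in pcDNA4c Control (log2 difference 1.50, SE 0.69, adjusted p = 0.568). Usp14, a deubiquitinase that docks on the cap, had 10.9, 1.57 and 10.7 against 51.7, 31.5 and 31.0 CPM (log2 difference -2.29, SE 1.02, adjusted p = 0.568). Nfe2l1, or NRF1, the factor that raises proteasome genes when the proteasome is inhibited, had 54.7, 218 and 152 against 54.6, 54.5 and 19.9 CPM (log2 difference 1.72, SE 0.76, adjusted p = 0.568). All 3 vector libraries of Nfe2l1 lay above the controls, with replicate 1 nearly level with the highest control. Between the control groups Nfe2l2 and Ddi2, the protease that activates NRF1, were lower in shRNA Control at an unadjusted p under 0.05. The adjusted p was 1 for both, and they are 6.06% of the genes tested from the list, beside 2.77% of all genes. For the difference between the effects Nfe2l2 was lower at an unadjusted p under 0.05 (adjusted p = 0.493), 3.03% beside 5.16% of all genes.

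NRF1 and NRF2 bind antioxidant response elements (ARE), so promoter windows of 300 bases were searched for TGACNNNGC on both strands. RefSeq gave 34 windows for 32 of the 39 subunits. The motif was in 5 of 34 (14.7%), beside 12.4% of all 32851 windows of the same length, a share near the background. The matches are shown because they fall on 2 catalytic subunits (Psmb5 and Psmb6), 1 ATPase (Psmc6), 1 lid subunit (Psmd12) and 1 assembly chaperone (Psmd9). Capitals mark the motif and the 10 bases around it are in lower case. On its own strand Psmb5 has it at chr14:54618024-54618052 (minus strand), Psmb6 at chr11:70525338-70525366 (plus strand) and Psmd9 at chr5:123228149-123228177 (plus strand), while Psmc6 at chr14:45329587-45329615 and Psmd12 at chr11:107479278-107479299 have it on the minus strand, opposite to the gene.
Psmb5: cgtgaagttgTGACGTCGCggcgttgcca
Psmb6: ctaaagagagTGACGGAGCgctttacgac
Psmd9: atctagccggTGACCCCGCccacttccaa
Psmc6: gagcaatgccTGACTTAGCtactggctgg
Psmd12: ggggcaaatgTGACACAGCaga

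The motif starts 47 bases before the RefSeq start of Psmb5, 9 before Psmb6, 31 before Psmd9, 227 before Psmc6 and 247 before Psmd12, where the window cuts the flank short. These 5 did not share a direction in overexpression, where the fitted log2 difference was -0.89 for Psmb5, 0.18 for Psmb6, 1.19 for Psmd9, 0.12 for Psmc6 and 0.24 for Psmd12, none of which passed the test. The other motifs were CCAAT in 13 windows (38.2% beside 37.4% of all), the interferon-stimulated response element (GAAA, any 2 bases, GAAA) in 3 (8.82% beside 3.44%), the GAS element TTCNNNGAA in 2 (5.88% beside 8.3%), the NRL half-site TGCTGA in 4 (11.8% beside 19.5%) and the CRX site TAATCC in 3 (8.82% beside 7.06%). The GAS match fell on Psmb8 and Psmd2, and the NRL half-site on Psma5, Psma7, Psmb9 and Psmb11. A match describes letters in a window and says nothing of binding.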

How the data were processed

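Per the submitters' processing notes, kallisto 0.45.0, edgeR 3.28 and the build mm10 were used, and their settings are not stated in what was read here. Values in the gene table deposited by the authors are expected counts, estimated per gene for 12 libraries. The deposited transcript table is named as counts but each column sums to the fixed total of TPM, so it was read as TPM. The deposited normalized table holds a scaled signal on a CPM-like scale for 11 libraries, so results on that scale leave out pcDNA4c mCsnk2a1 1.

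Counts were rounded and filtered (filterByExpr, minimum count 10), which left 20267 of 52962 genes, and scaled by TMM. All 12 libraries entered 1 quasi-likelihood fit (edgeR 4.0.16, R 4.3.3) with 4 groups. The same procedure was also run on counts simulated from the levels and spread of that fit, with an outcome not given here. An adjusted p under 0.05 counted as passing. SE is the log2 difference divided by the square root of the F statistic. Levels in CPM are TMM-scaled, and TPM of a gene is the sum over its transcripts. Named were the catalytic and tissue-restricted subunits, the highest and lowest by TPM of each class, and genes with an unadjusted p under 0.05; others, such as subunits whose groups do not overlap, were chosen after their values were seen. The members and lists were chosen with earlier results of these data known. Alternatives used DESeq2 1.42.0, limma 3.58.1, other scalings and filters, and left-out libraries. One gene of the list of other pathway genes is not reported here.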

Additional observations from a re-analysis of the deposited data

How the results depend on the processing

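The number of subunits called was 0 in all 4 comparisons and stayed 0 under every alternative run, leaving out each library included, with 1 exception. With limma on log2(TPM + 1) of coding transcripts, an alternative chosen after seeing the data, 1 subunit was called between the control groups: Psma4 (log2 difference 2.26, adjusted p = 0.0386), while its adjusted p in the other alternatives ran from 0.220 to 1. The median difference over subunits, here of group means of log2 CPM, was 0.26 between the control groups, 0.29 in knockdown, -0.06 in overexpression and -0.16 for the difference between the effects. From coding TPM it was 0.89 between the control groups, -0.13 in knockdown, 0.45 in overexpression and 0.56 for the difference between the effects, and Usp14 in overexpression turned to 0.99. The cause was not tested. In knockdown 12 of 38 subunits were then higher, against 24. Leaving out 1 library gave medians between 0.0545 (without pcDNA4c Control 2) and 0.33 for the control groups, 0.07 (without shRNA Control 2) and 0.35 in knockdown, -0.15 and 0.33 in overexpression, and -0.49 and 0.11 for the difference. Without pcDNA4c mCsnk2a1 3 the last pair turned to 0.33 and 0.11, and overexpression was also above 0 without replicate 1 or 2 of that group or pcDNA4c Control 1, so no direction is given for either. Scaling by total count alone moved the median of all genes by -0.16 in knockdown and -0.12 in overexpression, and RLE scaling by 0.13 for the difference and 0.11 between the control groups. Adding the patch copy to Psmd10 gave means of 6.77 and 22.5 CPM with the hairpin and in its control, and of 7.92 and 2.07 CPM with the vector and in its control. With the replicate block 0 subunits were called in each comparison; replicate numbers did not pair the libraries (median correlation of same-numbered libraries -0.0011). The SE exceeded 2 for Psmb5, Psmb9, Psmb10, Psmb11 and Psmd10, and whether depth or scatter between libraries sets it was not tested.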
